A study of Mus musculus with 3 samples.

Results

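Apoe, Plac8, Abca3, Cyfip1, Adm, Btg1 and Tyrobp are 7 genes whose array signal was clearly higher in Venus+ CD138hi cells of the spleen than in Venus+ CD138hi cells of the bone marrow. They were chosen by that difference, so it is given below as a description with no test. Each has 1 probe on the array, and they are 7 of the 16390 genes with a named probe. The cells were taken from an IL-10 Venus reporter mouse strain, where a fluorescent protein marks cells that express Il10. The 3 populations, all from such mice and sorted fresh by flow cytometry, were Venus+ cells with high CD138 from the spleen, Venus+ cells with high CD138 from the bone marrow, and B220+ cells from the spleen. CD138 is a surface protein of plasma cells, the antibody-secreting end stage of the B cell lineage, and B220 is a surface marker of B cells. Amplified RNA of each population was hybridized, with 1 dye, to an array of its own, 3 arrays in all. The sources used here do not give the ages, sexes or numbers of mice.

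Plasma cells arise in the spleen and other lymphoid organs, often through dividing precursors called plasmablasts, and part of them settle in the bone marrow, where they can live long. On the way they silence much of the B cell programme. The 7 genes belong to no single pathway. Apoe encodes apolipoprotein E, a secreted lipid carrier that binds receptors of the low-density lipoprotein receptor family and is made in large amount by liver cells and macrophages. Tyrobp encodes DAP12, a membrane adaptor with a tyrosine activation motif through which receptors of natural killer and myeloid cells signal. Plac8 encodes a small cysteine-rich protein found in several kinds of immune cell. Abca3 encodes a transporter best known for moving phospholipid into the lamellar bodies of lung epithelial cells. Cyfip1 encodes a subunit of the WAVE complex, which links the small GTPase Rac1 to actin branching. Adm encodes adrenomedullin, a secreted vasodilator peptide whose gene responds to low oxygen. Btg1 encodes an antiproliferative protein that binds the CCR4-NOT deadenylase and is linked to lymphocyte quiescence.

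All levels are normalized signals, the spot brightness above blank spots with the median of the detected probes of each array set to 25. A signal is set only against the same probe on another array. Errors of log2 ratios are spot errors, from the spread of blank and control spots within the arrays. They do not cover the spread between mice or sorts. With 1 array per population no difference has a replicate check, no p-value is given, and array and population cannot be told apart. Fewer cells of a type and less RNA per cell cannot be told apart either.

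Between 67.6% and 73.4% of the 23473 probes were detected on an array. The labels of the sorts were checked against markers. Sdc1, the gene of CD138, had a signal of 128 in spleen Venus+, 219.6 in bone marrow Venus+ and 2.50 in B220+ cells, and Il10 had 88.8, 91.3 and 5.94 in the same cells. All 16 listed plasma cell genes with a probe were detected in both Venus+ populations and 15 in B220+ cells, so detection alone does not separate the sorts. Their summed signals were 34940 in spleen Venus+, 45694 in bone marrow Venus+ and 2867 in B220+ cells. Of 17 listed mature B cell genes with a probe, 16 were detected in spleen Venus+, 15 in bone marrow Venus+ and 17 in B220+ cells. Their summed signals were 17275, 9840 and 41512 in the same cells. Among 11352 genes detected in both Venus+ populations, 1720 (15.2%) were at least 2-fold higher in the spleen and 492 (4.33%) at least 2-fold lower, with a median log2 ratio of 0.17. That split depends on the scaling: with scaling to the probes that all 3 arrays detected, called shared-probe scaling below, 916 were higher and 1250 lower, and the median moved by -0.33. For that reason a list's median is given as its distance from the all-gene median.

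Adm, the secreted peptide, showed the widest gap. Its signal was 623 in spleen Venus+ cells, it was not detected in bone marrow Venus+ cells, and it was 44.9 in B220+ cells. In the marrow sort its spot median was 43.4, just under the detection limit of 43.7, against 840.5 in the spleen sort. Adm was at least 265-fold higher in spleen than in bone marrow Venus+ cells, the largest bound of 1068 genes detected in the spleen population alone. Of the 1241 genes detected in 1 Venus+ population alone, 24.7% had a bound of 2-fold or more toward the spleen and 5.96% toward the marrow. The next in that order was S1pr1, the receptor that guides lymphocyte egress, at 82.3-fold or more. Against B220+ cells Adm was 13.9-fold higher in spleen Venus+ cells (log2 ratio 3.80 ± 0.14, spot error). In bone marrow Venus+ cells it was at least 19.1-fold lower than in B220+ cells. The normexp background, 1 of the other settings, starts from the spot minus its local background and adds an offset of 50. That offset draws the ratios of dim spots toward 0. With the normexp background these bounds were 7.13-fold for spleen over bone marrow Venus+ cells and 1.34-fold for bone marrow Venus+ under B220+ cells. Among the 2061 genes detected in 1 of those 2 populations alone, 27.2% had a bound of 2-fold or more in that direction and 31.7% in the other. For spleen Venus+ against B220+ cells, where none of the 7 genes was a bound, these shares were 38% higher and 11% lower of 1350 genes.

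**Figure D1:**
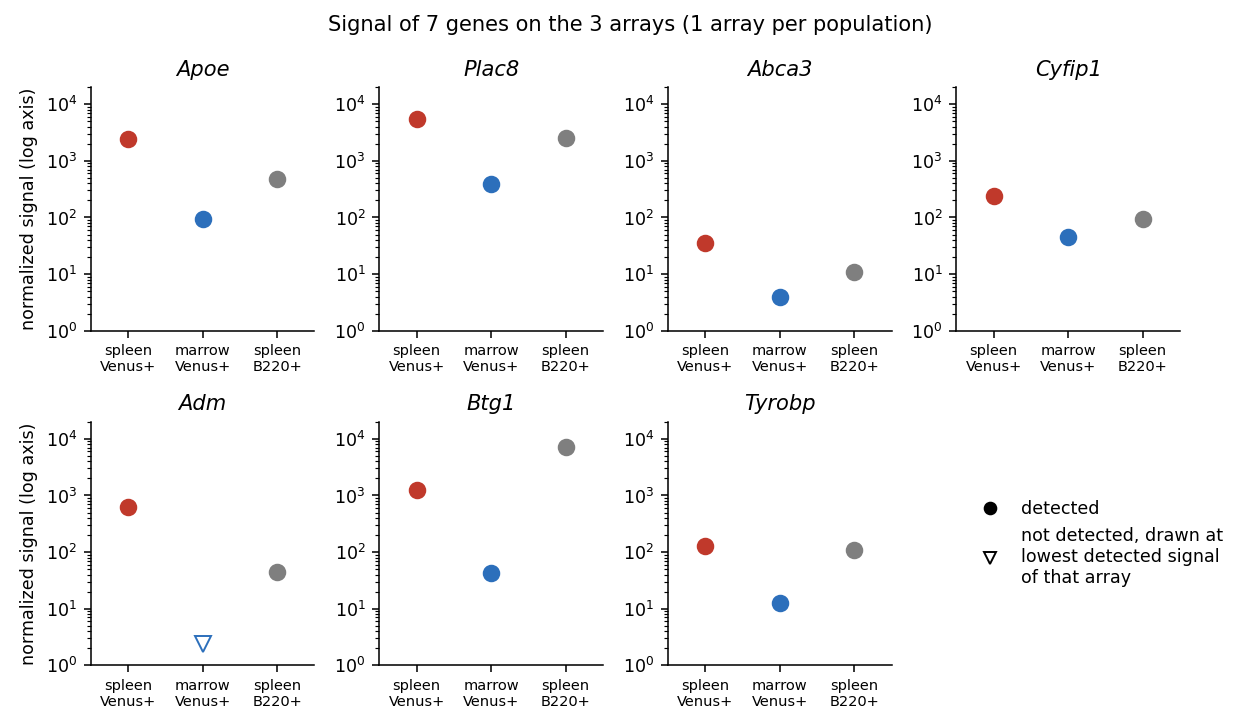
Normalized signal (log axis) of each of the 7 genes on the spleen Venus+, bone marrow Venus+ and spleen B220+ arrays, 1 point per array with no error bar. The marrow point lies lowest in every panel, Adm is not detected there and is drawn at the lowest detected signal of that array, and Btg1 is highest in B220+ cells.

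Btg1 had the opposite standing to Adm with regard to B220+ cells. Its signal was 1250.1 in spleen Venus+, 42.7 in bone marrow Venus+ and 7146 in B220+ cells, so the 3 populations lay far apart and the B220+ cells were highest. Spleen Venus+ cells were 29.3-fold above bone marrow Venus+ cells (log2 ratio 4.87 ± 0.12), the 6th largest ratio of 11352. Against B220+ cells, spleen Venus+ cells were 5.72-fold lower (log2 ratio -2.52 ± 0.14). Bone marrow Venus+ cells were 167-fold lower than B220+ cells (log2 ratio -7.39 ± 0.14). Only 3 of 10813 genes detected in both of those populations had a smaller ratio. Btg1 was the only one of the 7 genes with a lower signal in spleen Venus+ than in B220+ cells under the reported processing.

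The stretches upstream of Adm and Btg1 are shown because these genes, among the 7, stand farthest apart in the ratio of spleen Venus+ to B220+ cells. Each is the 250 bases before the RefSeq start site on GRCm38.p6, plus strand. Capitals mark the motifs TATAA and CCAAT on either strand.
Adm, chr7:110627407-110627656: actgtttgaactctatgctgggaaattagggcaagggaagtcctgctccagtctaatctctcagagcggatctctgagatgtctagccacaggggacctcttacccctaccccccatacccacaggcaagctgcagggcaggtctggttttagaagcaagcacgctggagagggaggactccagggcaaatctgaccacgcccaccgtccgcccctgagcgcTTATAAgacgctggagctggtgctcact
Btg1, chr10:96616751-96617000: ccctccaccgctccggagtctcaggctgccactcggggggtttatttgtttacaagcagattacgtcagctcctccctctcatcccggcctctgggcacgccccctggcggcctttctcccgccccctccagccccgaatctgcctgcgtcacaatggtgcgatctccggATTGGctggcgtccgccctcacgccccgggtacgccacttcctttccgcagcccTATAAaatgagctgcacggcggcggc

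Both windows hold TATAA close to the start site. It begins 27 bases before it in Adm, where TATAA and its reverse complement overlap, and 26 bases before it in Btg1. TATAA on either strand, at any position, is found in 22.8% of 32851 upstream windows of this length. The share with it close to the start site was not counted. The Btg1 window also holds CCAAT on the minus strand, 80 bases before the start, a motif found in 33.8% of windows. The letters ACGTG, the core of the hypoxia response element, are in 16.6% of windows and in neither of these. GGGCGG, the GC box, occurs 1 time in the Adm and 2 times in the Btg1 window, and in 32.7% of all windows. RefSeq windows were matched for 5 of the 7 genes.

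Apoe stood at 2472 in spleen Venus+, 95.6 in bone marrow Venus+ and 479 in B220+ cells. The spleen Venus+ cells were highest and the bone marrow Venus+ cells lowest, with B220+ cells between. The ratio of spleen to bone marrow Venus+ cells was 25.9-fold (log2 ratio 4.69 ± 0.11), the 8th largest. Spleen Venus+ cells exceeded B220+ cells 5.17-fold (2.37 ± 0.14), and bone marrow Venus+ cells were 5.01-fold below them (-2.32 ± 0.13).

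Plac8 had the same order of the 3 populations. Its signal was 5558 in spleen Venus+, 383 in bone marrow Venus+ and 2547 in B220+ cells. Spleen Venus+ cells were 14.5-fold above bone marrow Venus+ cells (log2 ratio 3.86 ± 0.11) and 2.18-fold above B220+ cells (1.13 ± 0.14). With quantile normalization its log2 ratio of spleen Venus+ to B220+ cells was 0.64, under 2-fold. Bone marrow Venus+ cells were 6.64-fold below B220+ cells (-2.73 ± 0.13).

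Tyrobp was nearly level in the 2 spleen populations. Its signal was 129.5 in spleen Venus+, 12.6 in bone marrow Venus+ and 108 in B220+ cells. The spleen Venus+ to B220+ log2 ratio of 0.26 ± 0.14 was under 2-fold and turned to -0.07 with the local background subtracted. Spleen Venus+ cells were 10.3-fold above bone marrow Venus+ cells (3.37 ± 0.18), and bone marrow Venus+ cells were 8.61-fold below B220+ cells (-3.11 ± 0.19).

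Cyfip1 had the smallest spleen to marrow ratio of the 6 genes detected on all 3 arrays. Its signal was 236 in spleen Venus+, 45.6 in bone marrow Venus+ and 93.1 in B220+ cells. The ratio of spleen to bone marrow Venus+ cells was 5.17-fold (2.37 ± 0.12), the 127th largest. Spleen Venus+ cells stood 2.53-fold above B220+ cells (1.34 ± 0.14), a direction that flipped to -0.20 with a normexp background and to -0.69 with the local background subtracted. Bone marrow Venus+ cells were 2.04-fold below B220+ cells (-1.03 ± 0.14), which was under 2-fold with 4 of 8 other settings.

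Abca3 had the widest spot error of the 6 genes detected on all 3 arrays. Its signal was 35.6 in spleen Venus+, 4.01 in bone marrow Venus+ and 10.8 in B220+ cells, and its spot median in the marrow sort was 45.5 against a detection limit of 43.7. Spleen Venus+ cells were 8.89-fold above bone marrow Venus+ cells (3.15 ± 0.44) and 3.30-fold above B220+ cells (1.72 ± 0.17). Bone marrow Venus+ cells were 2.69-fold below B220+ cells (-1.43 ± 0.45). With a normexp background these 3 log2 ratios of Abca3 were 0.11, 0.09 and -0.02, and with the local background subtracted they were 1.33, 0.77 and -0.56. With the normexp background the first ratio of Cyfip1 was 0.33.

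**Figure D2:**
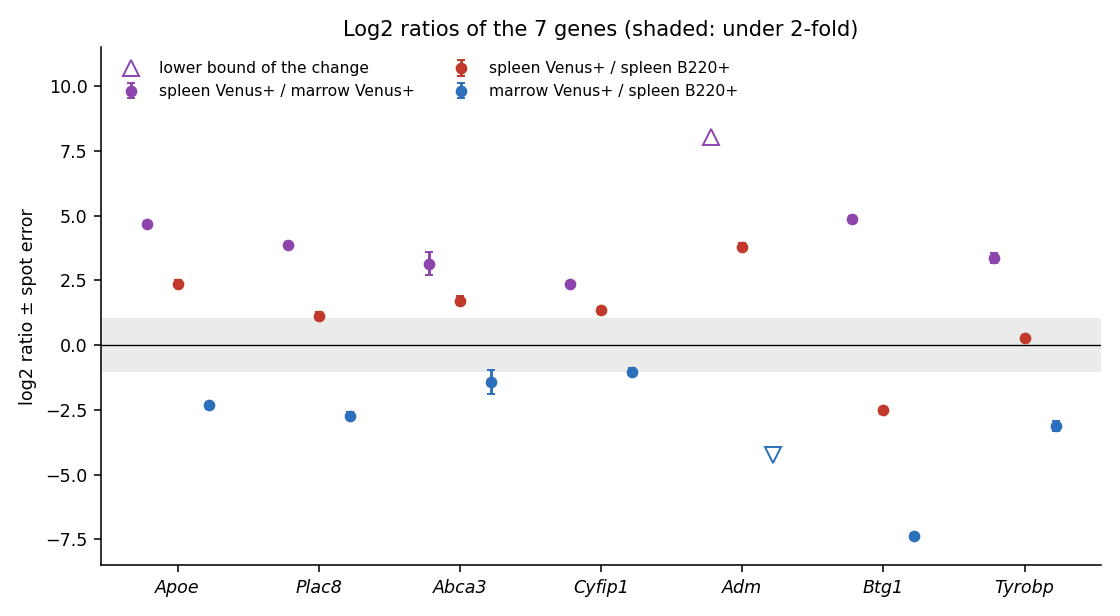
Log2 ratios of the 7 genes in the 3 comparisons, with bars for the spot error and open triangles for bounds of Adm, which was not detected in bone marrow Venus+ cells. The spleen to marrow ratios run from 2.37 for Cyfip1 to 4.87 for Btg1, and all ratios of bone marrow Venus+ to B220+ cells lie below 0.

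Both comparisons with B220+ cells share an array with the difference that chose the genes, so their values stand side by side without being counted as separate support. Of the 7 genes, 5 were at least 2-fold higher in spleen Venus+ than in B220+ cells, against 15.7% of 11618 genes, and 1 (Btg1) was at least 2-fold lower, against 16.5%. In bone marrow Venus+ cells the 6 detected genes were at least 2-fold lower than in B220+ cells, against 30.7% of 10813 genes. Adm was also lower there, by its bound. The rule that chose the genes has no threshold. Between the highest ratio of the 6, that of Btg1, and the lowest, that of Cyfip1, lay many genes that were not chosen, among them Bcl11a (4.72 ± 0.62), a B cell transcription factor gene. Cyfip1 itself sat between Zfp40 (2.37) and Mrtfa (2.36), so no gap sets it apart. Above Btg1 stood Cxcr5 (5.84), Cd72 (5.73), Ly86 (5.72), Cd2 (5.08) and 1810046K07Rik (4.95), and just below Apoe came Mirt1 (4.67) and Emb (4.64).

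**Figure D3:**
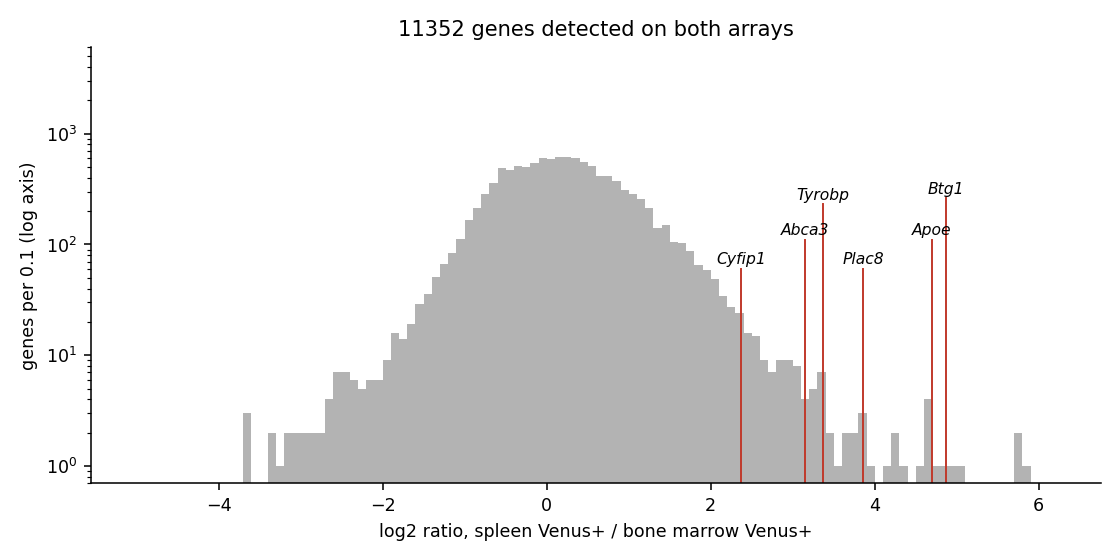
Number of genes (log axis) by log2 ratio of spleen to bone marrow Venus+ cells, for the 11352 genes detected on both arrays. The 6 marked genes lie in the right tail, from Cyfip1, ranked 127, to Btg1, ranked 6, and Adm is left out because it was detected in the spleen alone.

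The scanner files allow a check of each spot and its surroundings. The brightest of the neighbouring spots of Apoe had a spot median of 128 in spleen Venus+, 68.4 in bone marrow Venus+ and 363 in B220+ cells, against 3216, 143 and 957 for the Apoe spot. No neighbour of Adm exceeded 73.8 on any array. The Tyrobp spot lies beside that of Eif3m, which was brighter than it on all 3 arrays, with 596 in spleen Venus+, 467 in bone marrow Venus+ and 1364 in B220+ cells, against 207, 54.6 and 250.3 for Tyrobp. The Cyfip1 spot lies beside that of Trim27, with 257, 174 and 288 on the same arrays, against 343, 89.7 and 221 for Cyfip1. Hmox2 beside Btg1 had 363 in spleen Venus+, 260.1 in bone marrow Venus+ and 488 in B220+ cells, against 1646, 86.6 and 13681 for Btg1, so it outshone the Btg1 spot in the marrow sort. The brightest neighbour of Abca3 had 74.7 in spleen Venus+, 80.6 in bone marrow Venus+ and 92.9 in B220+ cells, against 86.3, 45.5 and 64.3 for Abca3. No neighbour of Plac8 was brighter than Plac8 itself. A part of these neighbours in the values was not tested. The local background that the scanner gives followed the brightness of its own spot. It was 2068 for Apoe in spleen Venus+ cells, and its correlation with the spot over all probes, on a log scale and as a description, was 0.95 on both Venus+ arrays and 0.97 on the B220+ array. For Cyfip1 the local background was 303 in spleen Venus+, 76.8 in bone marrow Venus+ and 147 in B220+ cells.

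Apoe and Tyrobp are strong in macrophages, so monocyte and macrophage markers are given beside them. Of 18 such markers with a probe, 6 were detected in spleen Venus+, 8 in bone marrow Venus+ and 12 in B220+ cells, with summed signals of 166, 292 and 131. Cd14, Adgre1, C1qa, Ccr2, Marco, Cd163, Siglec1, Spic, Mertk and Timd4 were detected in neither Venus+ population. Csf1r, the receptor for macrophage colony-stimulating factor, was at 24.9 in spleen Venus+, 27.3 in bone marrow Venus+ and 23.9 in B220+ cells. Cd68, a lysosomal glycoprotein, ran against Apoe and Tyrobp, at 111 in spleen Venus+ cells against 241 in the marrow sort. Ms4a7 was the marker with the highest ratio, at 12.4 against 3.96 (log2 ratio 1.65 ± 0.45). Itgam (4.30) and Fcgr1 (2.46) were detected in bone marrow Venus+ and not in spleen Venus+ cells. The lowest detected signal was 1.74 in spleen Venus+, 2.35 in bone marrow Venus+ and 1.34 in B220+ cells. Counts of faint markers therefore rest on unlike limits, as for Adgre1, Fcgr1 and Marco, counted in B220+ cells at 1.43 to 1.65. The list median lay -0.09 from that of all genes. Natural killer cell markers, relevant to Tyrobp, had 7 of 9 detected in spleen Venus+, 4 in bone marrow Venus+ and 7 in B220+ cells. Prf1, Nkg7 and Klre1 were detected in spleen Venus+ and not in bone marrow Venus+ cells. Their spleen signals lay near or under 2.35, the lowest detected signal of the marrow array. The counts of 7 and 4 therefore do not show that more of these markers were on in the spleen sort. Summed signals of the natural killer cell markers were 235 in spleen Venus+, 424 in bone marrow Venus+ and 44.9 in B220+ cells. Gzmb, the gene of granzyme B, made up most of the sum on both Venus+ arrays, at 202 in spleen Venus+, 385 in bone marrow Venus+ and 18.8 in B220+ cells. Of the 4 measured in both Venus+ populations, 0 reached 2-fold either way, and Ncr1 and Klrk1 were detected in neither. Neutrophil and granulocyte precursor markers summed to 42.4 in spleen Venus+, 240.3 in bone marrow Venus+ and 5202 in B220+ cells. Of 12 dendritic cell markers with a probe, 8 were detected on each Venus+ array, and 0 were at least 2-fold higher in the spleen. Among 10 T cell markers, Cd2 and Cd3g (2.64 ± 0.22) were higher in the spleen and 2 were lower, Cd8b1 (-1.54 ± 0.13) and Cd3e (-1.23 ± 0.22). With shared-probe scaling 2 were higher and 4 lower. Cd2 was at 284 in spleen Venus+, 8.38 in bone marrow Venus+ and 381 in B220+ cells, so it did not mark T cells alone here. Among 7 measured stromal and endothelial markers, 1, Pecam1 (3.14 ± 0.46), was at least 2-fold higher in the spleen and 0 lower. Pecam1 was highest in B220+ cells, at 149. Among 6 measured erythroid and platelet markers, 1 was higher, Tfrc (1.18 ± 0.21), and 1 lower, Car2 (-2.41 ± 0.66).

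The DAP12 list holds receptors, adaptors and kinases that work with Tyrobp. Its members Treml4, Clec5a, Sirpb1a, Klrk1 and Ncr1 were detected in neither Venus+ population and have no ratio. Of all 11352 genes detected in both, 15.2% were at least 2-fold higher in the spleen and 4.33% lower, and 9140 were under 2-fold either way. Of 19 genes of the DAP12 list with a probe, 12 were detected in both Venus+ populations, 2 at least 2-fold higher in the spleen, 1 lower and 9 between, with a median 0.04 above all genes, and with shared-probe scaling 2 were higher and 4 lower. Hcst, which encodes the sister adaptor DAP10, stood at 91.2 in spleen Venus+, 33.5 in bone marrow Venus+ and 102 in B220+ cells (spleen to marrow log2 ratio 1.45 ± 0.12). Fyn, a Src-family kinase, stood at 1.80 ± 0.35. Fcer1g, the adaptor of Fc receptors, was on the other side, at 91.6 in spleen Venus+ cells against 165 in bone marrow Venus+ cells (-0.85 ± 0.11), and Trem2, a DAP12-coupled receptor, was at 12.6 and 29.1 (-1.20 ± 0.16). Cd247, the zeta chain of the T cell receptor, was at 637 and 1039 in the same cells. Klrc2 and Zap70 were detected in the spleen population alone. Syk, the kinase that binds phosphorylated DAP12, was at 66.5 and 48.7.

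Around Apoe, 22 apolipoprotein, lipoprotein receptor and lipid efflux genes had a probe and 12 were detected in both Venus+ populations. At least 2-fold higher in the spleen were 3, the lysosomal lipase gene Lipa (1.26 ± 0.12) and the cholesterol exporters Abcg1 (1.22 ± 0.12) and Abca1 (1.08 ± 0.21). None was 2-fold lower, and the median lay -0.14 from that of all genes. Over all 11352 genes detected in both, 15.2% were at least 2-fold higher in the spleen and 4.33% lower. With shared-probe scaling 0 were at least 2-fold higher and 1 lower. Against B220+ cells, unlike Apoe, 4 of 15 measured genes of the list were at least 2-fold lower in spleen Venus+ cells and 1, Lipa, higher. For all 11618 genes in that comparison these shares were 16.5% and 15.7%. Apoc2 was at 2.41 in spleen Venus+ cells against 3.70 in bone marrow Venus+ cells, and Apoc1 at 2.39 in the spleen and not detected in the marrow sort. The bound for Apoc1 was only 1.01-fold, so its detection in the spleen alone does not show a difference. Sorl1, a sorting receptor that binds apolipoprotein E, had 68.9 in spleen Venus+ cells, no detected signal in the marrow sort and 833 in B220+ cells, which puts the spleen at least 29.3-fold above the marrow. Lpl, Vldlr and Nr1h3 were detected in neither Venus+ population.

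Of 14 other ABCA transporter genes with a probe, 6 were detected in both Venus+ populations, and 1, Abca1, was at least 2-fold higher in the spleen, a count that was 0 with shared-probe scaling. The rest ranged down to Abca6 (-0.17) and Abca5 (-0.56). Genes that work with Cyfip1 come next. Of all 11352 genes detected in both Venus+ populations, 15.2% were at least 2-fold higher in the spleen and 4.33% lower. The other 9140 lay between, that is under 2-fold either way. Among 17 measured genes of the WAVE and Arp2/3 list, 4 were at least 2-fold higher in spleen than in bone marrow Venus+ cells, 0 lower and 13 between, and 1 was higher with shared-probe scaling. The 4 were the Arp2/3 genes Actr2 (1.37 ± 0.11) and Actr3 (1.09 ± 0.11), the WAVE subunit Abi1 (1.30 ± 0.15) and the GTPase Rac2 (1.23 ± 0.11). Against B220+ cells, 10 of 17 measured genes of the list were at least 2-fold lower in spleen Venus+ cells and 0 higher, unlike Cyfip1 as reported. For all 11618 genes in that comparison these shares were 16.5% and 15.7%. Cyfip2, the paralog of Cyfip1, was at 423 in spleen Venus+, 302 in bone marrow Venus+ and 462 in B220+ cells, a spleen to marrow log2 ratio of 0.49 ± 0.11. Nckap1l, the blood cell form of the subunit that binds Cyfip proteins, stood at 255 in spleen Venus+ cells against 139.8 in bone marrow Venus+ cells (0.87 ± 0.11). Fmr1, whose protein binds Cyfip1, was detected in spleen Venus+ cells alone of the Venus+ populations (at least 3.71-fold higher), and the WAVE subunit gene Nckap1 only in the marrow sort of the 3, at least 2.81-fold lower in spleen Venus+ cells.

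Of 6 measured genes around adrenomedullin, 1 was at least 2-fold higher in spleen than in bone marrow Venus+ cells and 2 lower, the peptide gene Calca (-1.61 ± 0.45) and the peptidase gene Mme (-1.26 ± 0.69). With the normexp background, and also with the local background subtracted, 0 were higher and 0 lower. As reported, 15.2% of all 11352 genes detected in both Venus+ populations were at least 2-fold higher in the spleen and 4.33% lower. Calcrl, the adrenomedullin receptor, had a signal of 2.06 in spleen Venus+ cells, was not detected in bone marrow Venus+ cells and was at 5.34 in B220+ cells. Its spleen signal lay under 2.35, the lowest detected signal of the marrow array, so detection in the spleen alone does not show a difference. Of the proteins that partner Calcrl, Ramp1 and Ramp2 were detected on none of the 3 arrays. Ramp3 was not among the listed genes with a probe. Ackr3, an atypical chemokine receptor that also takes up adrenomedullin, was at 122 in spleen Venus+, 32.6 in bone marrow Venus+ and 10.3 in B220+ cells (spleen to marrow 1.90 ± 0.12). Pam, the enzyme that amidates the peptide, was level at 21.1 in spleen Venus+ cells against 21.9 in bone marrow Venus+ cells. Of 16 hypoxia response genes measured in both, 5 were at least 2-fold higher in spleen than in bone marrow Venus+ cells and 0 lower, with a median 0.54 above all genes. The 5 became 1 with shared-probe scaling, 2 with quantile normalization and 0 with the normexp background. As reported they were Hif1a (1.37 ± 0.15), the glucose transporter gene Slc2a1 (1.23 ± 0.16), Ldha (1.20 ± 0.11), Car9 (1.19 ± 0.65) and Pfkfb3 (1.03 ± 0.13). Vegfa, Ankrd37 and Ndrg1 were detected in the spleen population alone, at signals of 2.74 to 6.39. Their bounds for spleen over bone marrow Venus+ cells were 1.79-, 2.72- and 1.16-fold. Against B220+ cells, unlike Adm, Hif1a was lower in spleen Venus+ cells (-1.46), and 5 of 18 measured genes of the list were at least 2-fold lower and 1, Hk2, higher.

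Among 14 genes of the BTG/TOB family and the CCR4-NOT complex, 3 were at least 2-fold higher in spleen than in bone marrow Venus+ cells, 1 lower and 10 between, and 2 were higher and 1 lower with shared-probe scaling. For all 11352 genes detected in both, the reported shares were 15.2% higher and 4.33% lower. The complex members Cnot4 (1.91 ± 0.23), Cnot6 (1.71 ± 0.11) and Cnot6l (1.27) were the 3, and Prmt1, a methyltransferase that binds BTG proteins, was the 1, at 28.9 in spleen Venus+ cells against 164 in bone marrow Venus+ cells (-2.51 ± 0.12). Btg2, the nearest relative of Btg1, was at 295 in spleen Venus+, 182 in bone marrow Venus+ and 355 in B220+ cells (0.70 ± 0.11), and Tob1 stood at 0.17. The PLAC8 family had 1 other measured gene, Cnfn, at -0.19.

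B cell genes and cell division genes differed between the Venus+ populations too. The shares over all 11352 genes detected in both were 15.2% at least 2-fold higher in the spleen and 4.33% lower. Of 15 mature B cell genes detected in both, 11 were at least 2-fold higher in spleen Venus+ cells, 1 lower and 3 between, with a median 1.47 above all genes. Cd72 (5.73 ± 0.24), Bcl11a, Blk (4.34 ± 0.12) and Ms4a1 (2.97 ± 0.11), which encodes CD20, led them, and Fcer2a was the lower one (-1.41 ± 0.11). Of 18 cell division genes, 10 were at least 2-fold higher, 0 lower and 8 between. The 10 included the replicative helicase genes Mcm3 (2.19 ± 0.23), Mcm4 (1.87 ± 0.14) and Mcm5 (1.80 ± 0.17), while Mki67 (0.48), Cdk1 (0.46) and Birc5 (0.30) lay between. The 10 became 5 with shared-probe scaling, 4 with the local background subtracted and 1 with the normexp background, and the 11 B cell genes became 4 with the normexp background. Against B220+ cells, 11 of 20 measured cell division genes were at least 2-fold lower in spleen Venus+ cells and 1, Tk1, higher. For all 11618 genes in that comparison these shares were 16.5% and 15.7%. Of 16 plasma cell genes, 1 was higher in the spleen, Prdm1 (1.24 ± 0.12), which encodes Blimp1, and 3 were lower, Ighm (-1.76), Chst1 (-1.20) and Tnfrsf17 (-1.03), while shared-probe scaling gave 0 higher and 5 lower. With the local background subtracted 3 were higher and 5 lower, and with the normexp background 3 and 3, where the list median lay at 0.34 relative to that of all genes against -0.48 as reported. The part of B cells or dividing cells in the ratios of the 7 genes was not tested.

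**Figure D4:**
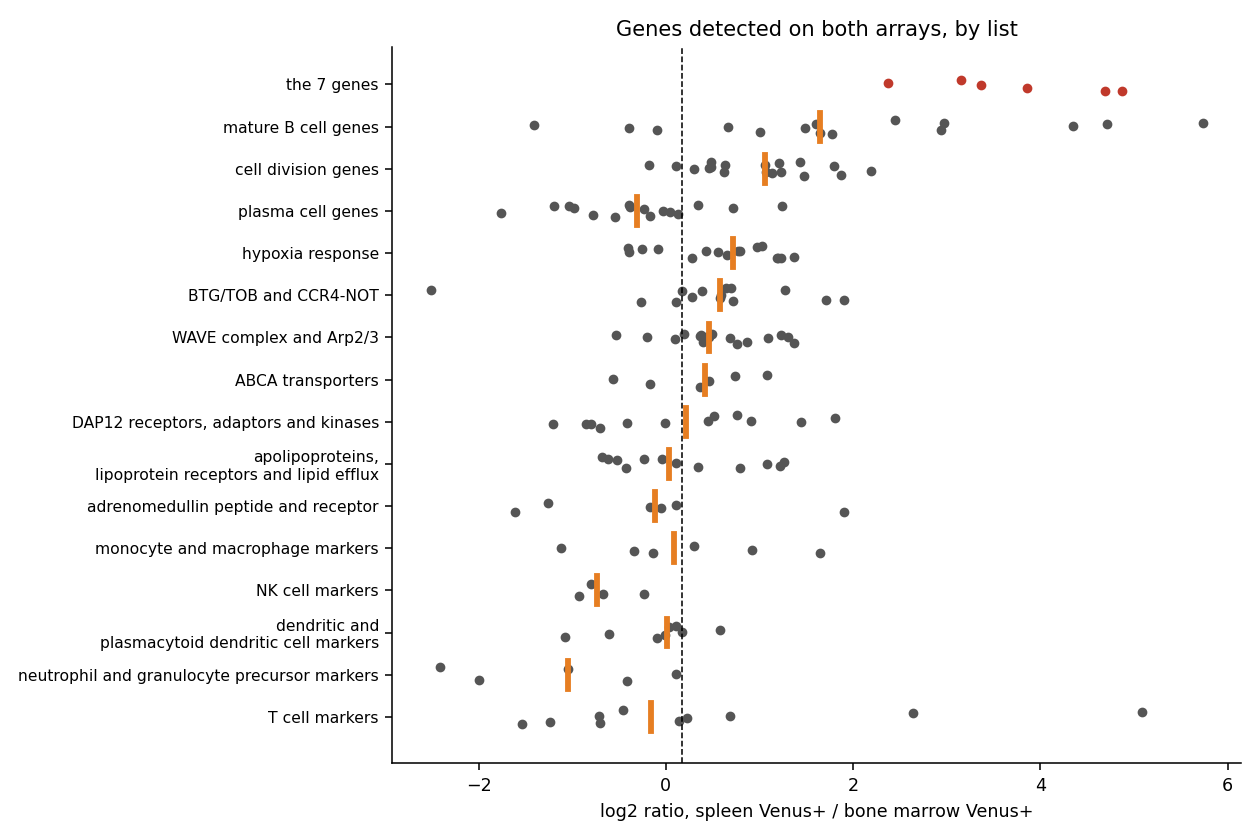
Log2 ratio of spleen to bone marrow Venus+ cells for listed genes detected on both arrays, 1 point per gene, with the list median as an orange bar and the median of all genes as a dashed line. The top row shows the 6 measured of the 7 genes, and the mature B cell genes spread farthest to the right, with their median at 1.65. The PLAC8 family, erythroid and platelet, and stromal and endothelial lists are not drawn.

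The genes most alike in pattern were found by the distance between log2 signals over the 3 arrays, after subtracting each gene's mean, among 6504 genes with a spleen Venus+ signal of at least 25. With 3 arrays this describes a shape and no more. An undetected signal was set to the lowest detected signal of its array, so a distance that involves Adm, Zbtb32, S100a6, Ccr7, Ms4a4b, Rgs2 or Nr4a1, none of them detected in the marrow sort, rests on that substituted value. Plac8 was closest to Dtx1 (distance 0.27), Myo1e (0.28) and Gbp2 (0.44). Abca3 was closest to Egr1 (0.22), Rasd1 (0.35) and Egr2 (0.43), of which Egr1 and Egr2 are immediate-early genes. Egr1 itself was at 494 in spleen Venus+, 64.9 in bone marrow Venus+ and 142 in B220+ cells. Cyfip1 was closest to Mcoln3 (0.11), Gbp7 (0.13) and Egr2 (0.17), and 14 genes lay within 0.5 of it. Tyrobp was closest to Nr4a1 and Marcksl1 (0.18 each) and Nek2 (0.24), with 11 within 0.5. Btg1 had 1 gene within 0.5, Ccr7 (0.28), a chemokine receptor gene with 65.3 in spleen Venus+ cells, no detected signal in bone marrow Venus+ cells and 303 in B220+ cells. The next nearest to it were Ms4a4b (0.67) and Rgs2 (0.72). Apoe had none within 0.5, and its nearest was Plac8 (0.90), followed by Zbtb32 (0.91) and Myo1e (1.02). Adm also had none, and its nearest were Apoe (2.38), S100a6 (2.54) and Zbtb32 (2.74).

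**Figure D5:**
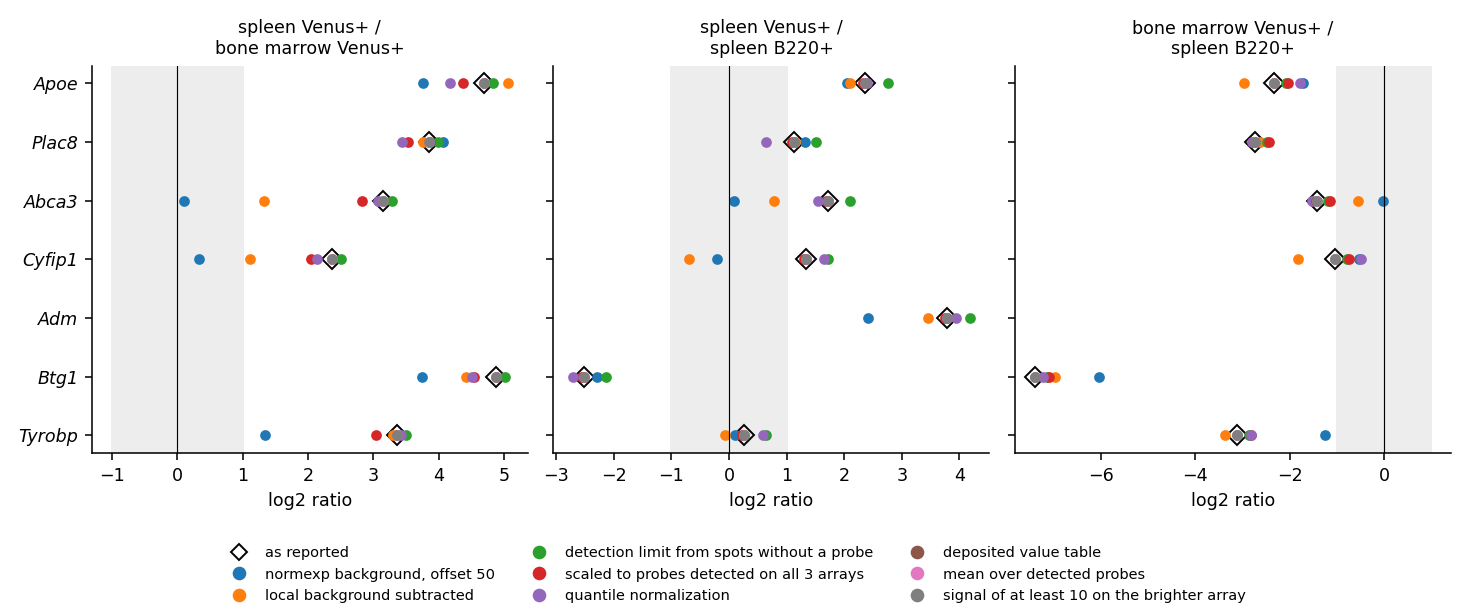
Log2 ratios of the 7 genes in the 3 comparisons as reported (open diamonds) and under 8 other settings (dots), with the range under 2-fold shaded and Adm shown only where it was detected on both arrays. The normexp background brings Abca3 to 0.11 and Cyfip1 to 0.33 for spleen over bone marrow Venus+ cells, and Cyfip1 changes sign against B220+ cells with that background and with the local background subtracted.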

How the data were processed

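Per the labels, sorted cells' total RNA was amplified, labelled with Cy5 and hybridized to Toray 3D-Gene mouse arrays. The deposited scanner file of each array gives a spot median intensity and a local background, per the file headers. The authors also deposited normalized intensity values with a median of 25 per array, and per the series' design text they subtracted blank spots and scaled to that median. The sources used here give no software version.

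Here signals were recomputed from spot medians. The mean of the middle 90% of 2736 blank spots, taken here as the interval named in that text, was subtracted, spots above that mean plus 2 SD counted as detected, and their median was set to 25. Detection calls differed from the deposited table for 0 probes. Flagged spots (1 in spleen Venus+, 2 in bone marrow Venus+, 0 in B220+) were left out. Blank spots had an SD of 0.868, 1.18 and 0.670 in normalized signal and positive control spots a relative SD of 5.77%, 5.21% and 7.57% in the same order, which together give the spot error, and precision is limited by the number of arrays. Of 23473 probes, 16631 had 1 symbol in the platform annotation, 0 had several and 6842 had none. Symbols were updated through the RefSeq table of GRCm38.p6 (3947 updated, 12622 current, 59 with an ambiguous synonym and 3 not found kept as given). For genes with several probes the one with the highest mean log2 signal was used. A gene was called at 2-fold when detected on both arrays. For a bound, the bright signal was divided by the dim array's lowest detected signal or the dim probe's own signal, whichever was higher. The normexp alternative, on spots minus local background and with an offset of 50, used limma 3.58.1 in R 4.3.3, and the rest Python 3.11.15. The ratio calculation was tested on simulated data.

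The members, 18 gene lists and the alternatives were chosen with earlier results of these data known. The rule for named genes covered the 7 members, the up to 4 highest and lowest of each list and those detected in 1 Venus+ population, the 10 largest spleen to marrow ratios and the 3 genes most alike in pattern to each member. Not every list gene that it covers is printed. Genes given for their role (Syk, Cd247, Csf1r, Btg2, Tob1, Cyfip2, Nckap1l, Sdc1, Il10, Calcrl, S1pr1 and others in the lists) were picked after their values were seen.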

Additional observations from a re-analysis of the deposited data

How the results depend on the processing

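Each of 8 other settings was set against the reported processing. The spleen to bone marrow Venus+ ratios of Apoe (3.76 to 5.06), Plac8 (3.44 to 4.07), Btg1 (3.74 to 5.01) and Tyrobp (1.35 to 3.50) stayed at least 2-fold under all 8. Those of Abca3 (0.11 to 3.29) and Cyfip1 (0.33 to 2.50) did under 7, the exception being the normexp background. The Adm bound ran from 7.13-fold with that background to 265-fold, and that of bone marrow Venus+ under B220+ cells from 1.34-fold with it to 19.1-fold, with no bound from the deposited table, which lists no undetected values. Against B220+ cells, the ratio of spleen Venus+ cells reversed for Cyfip1 to -0.20 with normexp and -0.69 with the local background subtracted. For all genes, normexp gave 378 higher and 82 lower for spleen over bone marrow Venus+ cells, 360 and 509 for spleen Venus+ over B220+ cells, and 320 and 1023 for bone marrow Venus+ over B220+ cells. For spleen over bone marrow Venus+ cells, the local background gave 779 lower, scaling to probes detected on all 3 arrays 916 higher and 1250 lower, and quantile normalization 1161 higher and 1224 lower. For bone marrow Venus+ over B220+ cells, scaling to those probes turned 2423 higher and 3320 lower into 3055 and 2610. A detection limit from spots without a probe gave 1029 lower for spleen Venus+ over B220+ cells. By its arithmetic the normexp offset of 50 draws ratios of dim spots toward 0. Further causes of these shifts were not tested. No paired analysis was possible because each population has 1 array. Leaving out a replicate was not possible for the same reason. Low signal limits Adm in the marrow sort to a bound and gives Abca3 a spot error of 0.44 there.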
